A study of Drosophila melanogaster with 6 samples.

Results

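The 92 expressed long non-coding RNAs (lncRNAs) of regenerating wing discs of *Drosophila melanogaster* are described here by their levels, their spread and their difference between labelled groups. They were selected on their level, as the genes whose FlyBase symbol begins with lncRNA: and whose mean over 6 RNA-seq libraries was at least 2 TPM (an abundance per transcript length that RSEM scales to the same total in each library). Of the 1914 genes with such a symbol, among 16455 genes in all, 1817 had a lower mean, and 1143 of these were listed at 0 in every library. A further 8 lncRNAs were set aside by name, *CR40469*, *CR34335*, *roX1*, *roX2*, *CR32205*, *CR32207*, *CR33940* and *CR32368*, some of which were already known to differ between these libraries. Of these, 5 carried a lncRNA symbol in the gene names used here, and all 5 reached 2 TPM. The 92 are therefore a list trimmed of some lncRNAs with known differences, and any count of differing members below describes what remained after that choice. Not all known differences were removed: 4 members are on the study's own list of genes changed in the mutant.

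The wing imaginal disc is a folded sheet of larval cells from which the wing blade, the hinge and the neighbouring body wall form, and it can regrow after part of it dies. LncRNAs are transcripts without a long open reading frame. Some act in the nucleus on the genes beside them, some hold RNA-binding proteins, some are the precursors of small nucleolar RNAs (snoRNAs, which guide the modification of ribosomal RNA) or of microRNAs, and for most of them no function is known.

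All 6 libraries came from discs of larvae of the third instar in which the pro-apoptotic gene *rpr* had been expressed for 16 h, so no undamaged disc is among them. Larvae of both groups carried salE/Pv-LHG:tub-Gal80TS and lexO-rpr. The salE/Pv enhancer drives the activator LHG in the central part of the wing disc, Gal80TS blocks LHG at the low temperature, and LHG switches on *rpr* once the larvae are warmed. The labels themselves say only CR40469-KO (3 libraries) or control (3 libraries). By the study's description, mutant larvae were also homozygous for a deletion of the lncRNA *CR40469*, in which an mCherry cassette takes the place of the locus. Control larvae had the locus intact. The level of *CR40469* goes against this assignment of the labelled libraries. Discs were pooled within a library, and nothing in the labels says whether libraries of a group came from separate crosses, so the p-values measure the spread between these libraries only. RNA was taken from whole discs, so fewer cells of a type and less RNA per cell cannot be told apart.

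The gene named as deleted went against the labels. *CR40469*, which lies on chromosome X from 122493 to 122706, had 535.93, 389.21 and 293.78 TPM in the libraries labelled CR40469-KO replicates 1, 2 and 3, and 99.61, 46.44 and 82.52 TPM in those labelled control replicates 1, 2 and 3. *CR34335*, whose sequence is nearly identical to that of *CR40469*, had 1938.3, 1928.6 and 1902.1 TPM in the libraries labelled CR40469-KO and 3521.6, 2443.0 and 3201.9 TPM in those labelled control, so the level of *CR40469* also depends on how reads were divided between both copies. Groups are therefore named by their label only, and every direction given below is a direction between labels. All 12 wing disc markers examined, such as *nub*, *vg* and *wg*, had a mean of at least 1 TPM, and their summed level was 764.0 to 1040.1 TPM in the libraries labelled CR40469-KO and 616.9 to 1022.0 TPM in those labelled control. The 5 markers of the fat body, an organ that lies against the discs, summed to 6.26 to 9.7 TPM in the libraries labelled CR40469-KO and 9.53 to 16.3 TPM in those labelled control. *Tsf1* was the highest of the 5 in every library but control replicate 2, where *Fbp1* had 6.29 TPM. The log2 fold changes were -0.14 for *Tsf1* and -1.04 for *Fbp2*. The 6 markers of haemocytes (blood cells) summed to 2.78 to 15.4 TPM in the libraries labelled CR40469-KO and 1.83 to 11.8 TPM in those labelled control. The 3 salivary gland markers stayed at or below 0.49 TPM in sum in every library. *roX2*, an RNA of the male X chromosome, stood at 106.2 ± 31.4 TPM in the libraries labelled CR40469-KO and 176.4 ± 48.6 TPM in those labelled control (SD, n = 3 each). The 2 other markers of male X dosage compensation did not follow it alike. *roX1* stood at 194.5 ± 44.2 TPM in the libraries labelled CR40469-KO and 217.6 ± 45.4 TPM in those labelled control. The log2 fold changes were -0.73 for *roX2*, -0.17 for *roX1* and 0.07 for *msl-2*. Libraries also stood apart from their own group: CR40469-KO replicate 1 was the highest of the 6 libraries in 51.9% of the 8051 tested genes, and control replicate 1 was the lowest in 49.4%. The part of any of these in the differences between lncRNAs was not tested.

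The expressed lncRNAs were mostly low. Only 6 of the 92 had a mean of at least 100 TPM, 28 lay between 10 and 100 TPM, 19 between 5 and 10 TPM and 39 between 2 and 5 TPM. Their median level was 6.23 TPM, against 32.1 TPM for the 7162 protein-coding genes (PCGs) with a mean of at least 2 TPM. The longest transcript had a single exon in 55 of 92 members (59.8%), against 627 of 7162 PCGs (8.75%). All 92 members passed the filter for testing (1 TPM in at least 1 library), and 90 of them had at least 1 TPM in every library.

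**Figure D1:**
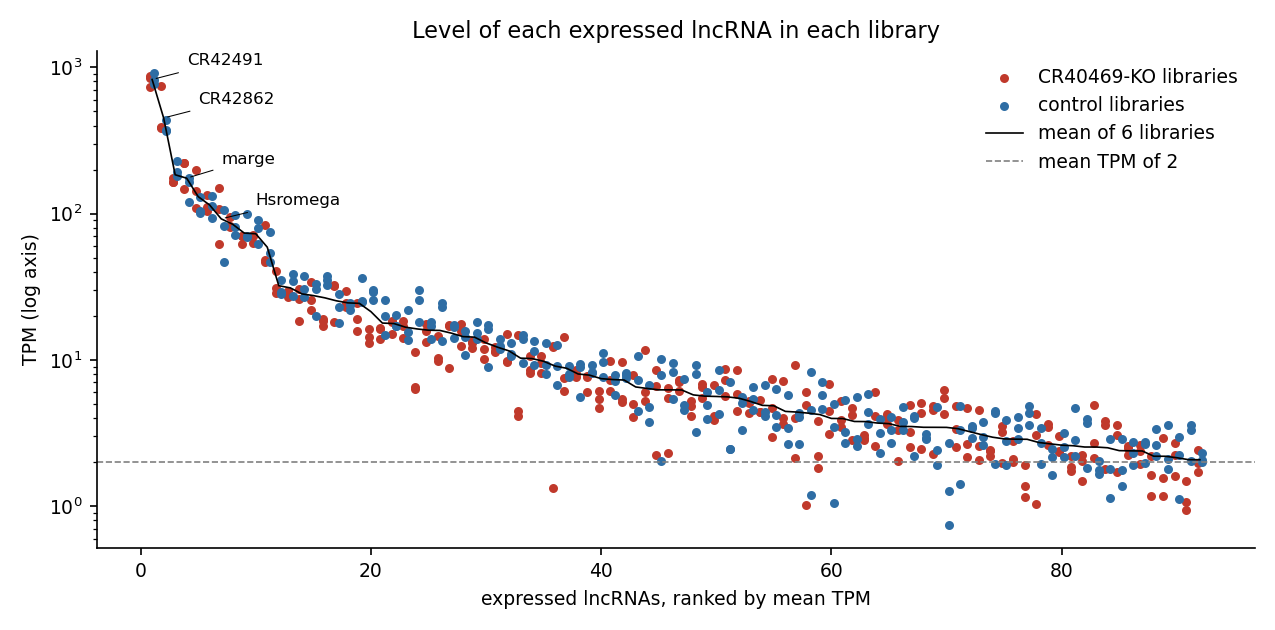
TPM (log axis) of each of the 92 expressed lncRNAs in each library, ranked by the mean of 6 libraries (black line). Red points are the libraries labelled CR40469-KO and blue points those labelled control, and the dashed line marks the mean of 2 TPM on which members were selected. Levels fall steeply over the first 10 ranks and then slowly, and the colours are fully apart at 17 of the 92 ranks (18.5%). Of all tested genes, 7.9% had every library labelled CR40469-KO above every one labelled control, and 2.56% had every one below.

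A few members held most of the signal. Together the 92 lncRNAs summed to 2993.2 ± 158.0 TPM in the libraries labelled CR40469-KO and 2924.4 ± 181.8 TPM in those labelled control (SD, n = 3 each), and the groups overlapped. The 2 highest members made up 43.1% of the summed mean level and the 10 highest 74.4%. Without the 2 highest, the sums were 1666.9 ± 87.2 TPM in the libraries labelled CR40469-KO and 1699.0 ± 79.5 TPM in those labelled control, and again overlapped.

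The highest member was *CR42491* on X, from 762615 to 763810, which holds the snoRNA Psi18S-531. It had 730.46, 848.22 and 873.65 TPM in the libraries labelled CR40469-KO and 909.19, 768.66 and 821.69 TPM in those labelled control. These 6 values lie close together and the groups overlap. *CR42491* shares exon sequence on the same strand with *RpL22*, which encodes a protein of the large ribosomal subunit and had a mean of 1128.5 TPM, so its level depends on how reads were divided between both genes. The other snoRNA host among the highest, *CR45184* on 3L, holds 5 snoRNAs and shares exon sequence with the splicing factor gene *Sf3b3*. *CR45184* had 133.02, 104.38 and 111.33 TPM in the libraries labelled CR40469-KO and 93.23, 132.24 and 111.80 TPM in those labelled control, which overlap as well.

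*CR42862* on 3L was the second in rank, and its difference between labels rested on a single library. It stood at 748.09, 393.77 and 384.45 TPM in the libraries labelled CR40469-KO, against 438.73, 368.16 and 369.91 TPM in those labelled control. Apart from CR40469-KO replicate 1, its libraries spanned only 368.16 to 438.73 TPM. The log2 fold change of 0.31 over all libraries (SE 0.26) was -0.01 when CR40469-KO replicate 1 was left out. *CR42862* shares exons with *CG33229* on the same strand, which was much lower, at a mean of 76.0 TPM.

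Of the remaining members among the 10 highest, *CR33938* on 3R, whose nearest PCG is the cuticle protein gene *Ccp84Ab*, had 175.37, 164.77 and 163.31 TPM in the libraries labelled CR40469-KO and 180.47, 191.17 and 230.03 TPM in those labelled control. Its groups did not overlap, but the log2 fold change was only -0.25 (SE 0.15, Benjamini-Hochberg adjusted p = 0.818 by limma). *Ccp84Ab* itself was nearly absent, with a mean of 0.11 TPM. *CR43264* lies within the span of *CG15765* on the opposite strand and had 109.70, 198.26 and 141.67 TPM in the libraries labelled CR40469-KO, against 129.45, 100.95 and 103.46 TPM in those labelled control. *CG15765* had a mean of 1.76 TPM, so here too the lncRNA was the far more abundant transcript. *CR42549*, *CR44334* and *CR43241* had means of 84.5, 73.6 and 72.8 TPM and log2 fold changes of 0.05, -0.23 and -0.16, and the groups overlapped in all of them.

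The members with a name of their own were 6 in number. *Hsromega* (3R, 21296127 to 21317836) is the heat shock omega gene, whose nuclear transcript builds the omega speckles, stores of hnRNP proteins, and which is strongly induced by heat and other stress. It had 148.40, 108.19 and 61.73 TPM in the libraries labelled CR40469-KO and 105.06, 46.54 and 82.27 TPM in those labelled control. The libraries of each group differed by over 2-fold and the groups overlapped, so the log2 fold change of 0.43 (SE 0.37) lies within the spread. The gene also holds mir-4951. *marge* on 3L, 585 bp from *Ocho*, a gene of the Bearded family of Notch pathway regulators, had 146.70, 220.00 and 220.34 TPM in the libraries labelled CR40469-KO and 120.72, 165.25 and 173.99 TPM in those labelled control. Both genes were expressed at this stage, with *Ocho* at a mean of 38.2 TPM, and their log2 fold changes were 0.34 for *marge* and -0.31 for *Ocho* (adjusted p = 0.818 for both, limma with Benjamini-Hochberg adjustment).

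The other named lncRNAs were low. *CRG*, which overlaps the *CASK* gene on the same strand and is known as a regulator of *CASK* in locomotor behaviour, had 4.69 ± 0.52 TPM in the libraries labelled CR40469-KO and 5.08 ± 1.40 TPM in those labelled control (SD, n = 3 each). *noe* had 3.97 ± 0.31 TPM in the libraries labelled CR40469-KO and 3.35 ± 0.67 TPM in those labelled control, and *enrr* had 3.05 ± 1.29 TPM against 3.12 ± 0.58 TPM. These differences lie within the spread between libraries. *enrr* shares exon sequence with *elav*. *SMRG* was the only named lncRNA whose groups did not overlap and is described with the leading differences.

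*CR31044*, the host of mir-279 and mir-996, microRNAs that restrict neuronal fates, was also low, at 4.81, 3.36 and 2.52 TPM in the libraries labelled CR40469-KO and 3.34, 1.41 and 4.85 TPM in those labelled control. Its groups overlapped, and control replicates 2 and 3 were the lowest and the highest of the 6 libraries. The level of such a host transcript is not a measure of its microRNAs.

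The spread between libraries of a group was compared with that of PCGs as a description, without a test. The coefficient of variation (SD over mean) within a group, averaged over both groups, had a median of 23.3% over the members and 14.6% over PCGs. The gap was present at each level: 29.4% against 23.2% between 2 and 5 TPM, 28.1% against 18.0% between 5 and 10 TPM, 18.0% against 14.6% between 10 and 100 TPM, and 17.6% against 12.1% from 100 TPM upwards. Both labels contributed alike, with a median of 22.7% in the libraries labelled CR40469-KO and 22.4% in those labelled control. The longest transcript of these PCGs had a median length of 2115.5 bp, against 697.5 bp for the members, and the part of length in this gap was not tested.

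**Figure D2:**
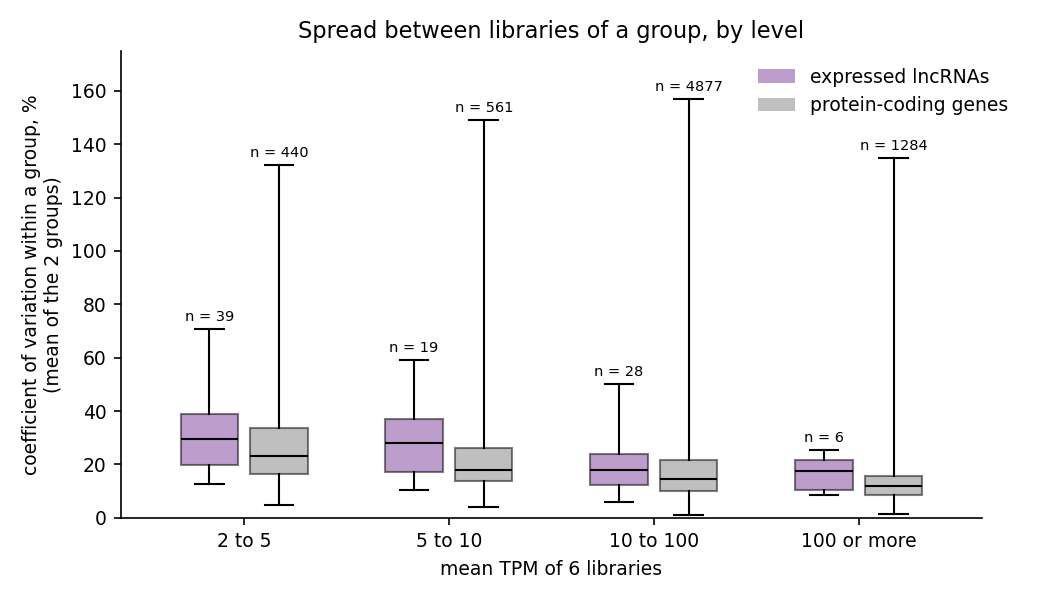
Coefficient of variation between the libraries of a group (percent, mean of both groups) for the expressed lncRNAs (purple, left of each pair) and PCGs (grey, right), by mean TPM. Boxes show the quartiles and the median, whiskers the lowest and highest gene, and n the number of genes. The median of the lncRNAs lies above that of PCGs in each of the 4 classes of level.

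The 4 members with the largest spread all had means under 10 TPM. *CR44268*, which lies in the span of *CG12567*, had 1.34, 12.45 and 12.23 TPM in the libraries labelled CR40469-KO and 12.64, 9.04 and 6.70 TPM in those labelled control, so CR40469-KO replicate 1 stood apart by itself. *CR44499* had 4.89, 6.02 and 1.01 TPM in the libraries labelled CR40469-KO and 8.25, 1.2 and 4.55 TPM in those labelled control. *CR44589* had 8.52, 2.22 and 6.64 TPM in the libraries labelled CR40469-KO and 10.06, 7.92 and 2.05 TPM in those labelled control. In both of these the low library is a different one in each group. *CR43604*, within the span of *dachs*, a myosin gene of the Fat growth pathway, had 4.44, 6.83 and 3.09 TPM in the libraries labelled CR40469-KO and 3.48, 4.96 and 1.05 TPM in those labelled control. Over all members, the highest library exceeded the lowest by a median of 2.11-fold, and by over 3-fold in 19 of 92.

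The comparison was designed to ask which transcripts differ in regenerating discs when *CR40469* is deleted, and since that gene goes against the labels, it is given as a comparison of labels only. TPM were compared with limma on log2(TPM + 1), a scale that understates the change of low genes. Calls required a fold change over 1.7 and an adjusted p under 0.05, with the Benjamini-Hochberg adjustment made over all 8051 tested genes. At the same thresholds, the study listed 95 genes, 4 of them members, with DESeq2 and a design that also included non-regenerating discs. With limma on these 6 libraries, none of the 92 lncRNAs was called, and 0.224% of all tested genes were (18 genes, 12 higher and 6 lower in the libraries labelled CR40469-KO). At an unadjusted p under 0.05 there were 16 members (17.4%), against 4.82% of tested genes, and 12 of the 16 were lower and 4 higher in the libraries labelled CR40469-KO. In 14 members (15.2%) every library labelled CR40469-KO was below every library labelled control, against 2.56% of tested genes. In 3 members (3.26%) every library labelled CR40469-KO was above, against 7.9% of tested genes. Members were selected on a mean over both groups, so a low member could be included through the group in which it was higher. Of the 16 members, 5 had a mean under 2 TPM in one of the groups, *CR45181*, *CR45380* and *CR44676* in the libraries labelled CR40469-KO and *CR43907* and *CR44498* in those labelled control. Among the 83 members with a mean of at least 2 TPM in both groups, a division chosen after the values were seen, 11 (13.3%) had an unadjusted p under 0.05, of which 9 were lower in the libraries labelled CR40469-KO. These counts describe the selected members and are not a test of them as a group. Because 3 against 3 libraries cannot give a two-sided exact permutation p below 0.10, groups that do not overlap are given as a description.

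The median log2 fold change of the lncRNAs was -0.06, whereas that of all tested genes was 0.125 and that of PCGs with a mean of at least 2 TPM was 0.13. A log2 fold change of 0.125 was thus the middle of all tested genes. Below it lay 65 of the 92 members (70.7%) and 3475 of 7162 PCGs. The median level was 6.23 TPM for the members and 27.9 TPM for all tested genes. With 1 added to each TPM, a shift common to all genes is smaller at low levels. The value of 0.125 therefore does not mark no change for the low members. When libraries were scaled by their median ratios, the medians were -0.16 for the members and 0.0014 for all tested genes. The members' median was below that of all tested genes in each fit with 1 library left out, by 0.11 on the log2 scale without control replicate 1 and by 0.29 without control replicate 2. Control replicate 1 was the highest library in 32.6% of the members and the lowest in 49.4% of tested genes. CR40469-KO replicate 1 was the highest in 27.2% of the members and in 51.9% of tested genes. The part of single libraries in these medians was not tested. Without control replicate 2, the number of members at an unadjusted p under 0.05 was 22, and the share of all tested genes was 12.3%.

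**Figure D3:**
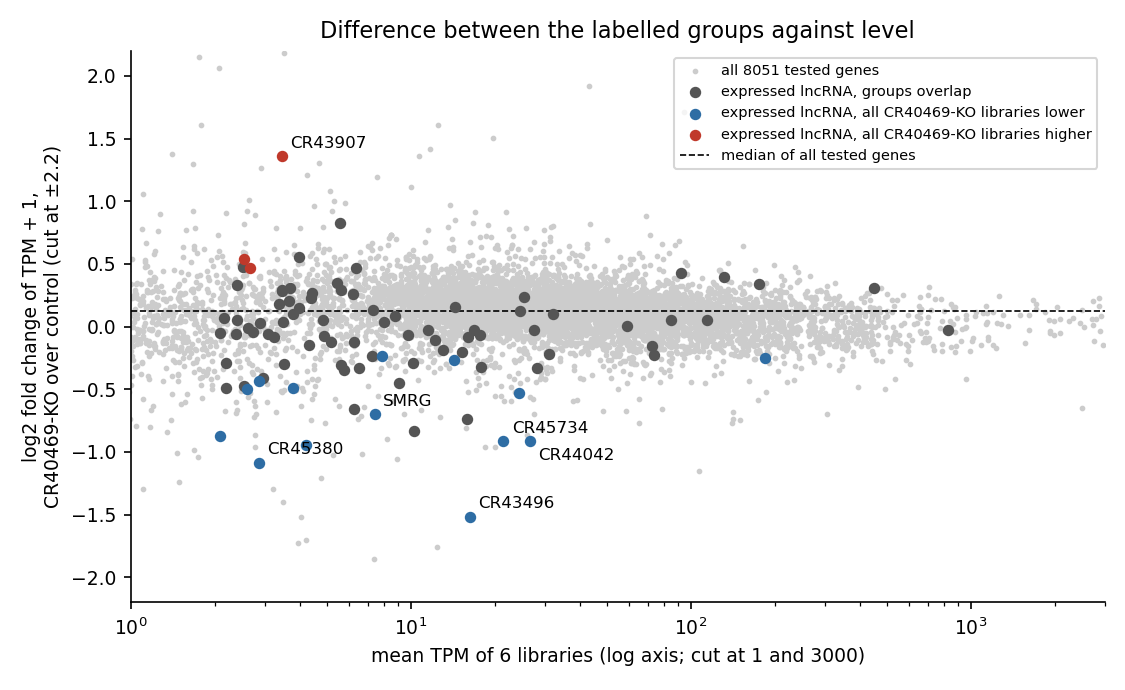
Log2 fold change of TPM + 1 (libraries labelled CR40469-KO over those labelled control) against the mean TPM of 6 libraries (log axis). Grey points are all tested genes within the axes, large points the expressed lncRNAs, blue where every library labelled CR40469-KO was lower (14 members) and red where every one was higher (3 members). The dashed line is the median of all tested genes (0.125), and most large points lie below it.

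The member with the largest log2 fold change in either direction at the pseudocount of 1 was *CR43496* (X, 6758610 to 6759491). At a pseudocount of 0.1 it had -1.62, and *CR43907*, described below, was larger at 1.86. *CR43496* lies on the opposite strand within the span of *sov*, a zinc finger gene of heterochromatin. It had 11.27, 6.54 and 6.27 TPM in the libraries labelled CR40469-KO, against 29.82, 18.19 and 25.54 TPM in those labelled control. The groups did not overlap, with 11.27 TPM against 18.19 TPM at the closest. The log2 fold change was -1.51 (SE 0.25, Benjamini-Hochberg adjusted p = 0.0789 by limma). Without CR40469-KO replicate 1 it was -1.76 with an adjusted p of 0.0157 (limma), past both thresholds, and over all alternatives the adjusted p ranged between 0.0133 and 0.506.

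*CR44042* (2R, 1348167 to 1349167) and *CR45734* (3L, 20920802 to 20921073) had groups far apart and little spread within them. *CR44042* had 16.92, 19.11 and 18.33 TPM in the libraries labelled CR40469-KO and 37.23, 32.72 and 34.94 TPM in those labelled control. *CR45734* had 12.97, 16.21 and 14.39 TPM in the libraries labelled CR40469-KO and 28.93, 25.64 and 30.05 TPM in those labelled control. Replicates lay close together in both, with coefficients of variation of 6.29% and 9.66% averaged over both groups. The log2 fold changes were -0.91 for *CR44042* (SE 0.13, adjusted p = 0.0536) and -0.91 for *CR45734* (SE 0.15, adjusted p = 0.0677, limma with Benjamini-Hochberg adjustment). Both are intergenic single-exon genes that share no exon with another gene. The nearest PCG of *CR45734*, 4817 bp away, is *fng*, a glycosyltransferase that modifies Notch and positions the wing margin, and it had 194.1 ± 26.4 TPM in the libraries labelled CR40469-KO and 180.5 ± 26.9 TPM in those labelled control (SD, n = 3 each; log2 fold change 0.11, adjusted p = 0.833 from limma).

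**Figure D4:**
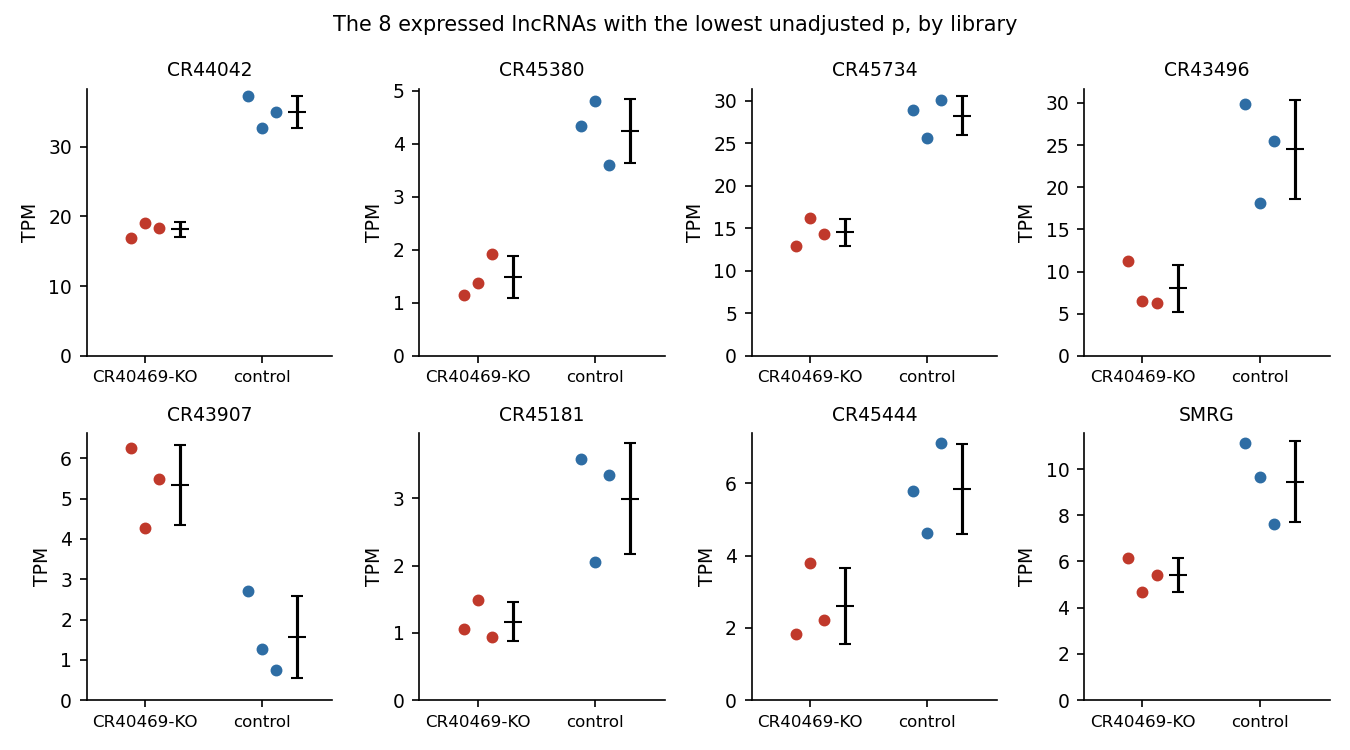
TPM of the 8 expressed lncRNAs with the lowest unadjusted p in the 3 libraries labelled CR40469-KO (red, left) and the 3 labelled control (blue, right). Points run from replicate 1 to 3 within a group, and the bars give the mean ± SD. The groups do not overlap in any of the 8, of which *CR43907* was higher and the other 7 lower in the libraries labelled CR40469-KO, and none was called.

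Among low members, *CR45380* (3L, 3329281 to 3329597), 409 bp from the STRIPAK complex gene *Strip*, had 1.15, 1.37 and 1.92 TPM in the libraries labelled CR40469-KO and 4.33, 4.8 and 3.61 TPM in those labelled control. Its log2 fold change was -1.09 (SE 0.17, Benjamini-Hochberg adjusted p = 0.0597 by limma). *CR45444*, 115 bp from *CG10418*, had 1.83, 3.80 and 2.21 TPM in the libraries labelled CR40469-KO and 5.78, 4.62 and 7.11 TPM in those labelled control. *CR45181*, next to the cohesin gene *vtd* and among the lowest members of all, had 1.06, 1.49 and 0.94 TPM in the libraries labelled CR40469-KO and 3.59, 2.05 and 3.34 TPM in those labelled control. It shares exon sequence with the lncRNA *CR46252*. The log2 fold changes of *CR45444* and *CR45181* were -0.94 and -0.87 (adjusted p = 0.325 and 0.236, limma with Benjamini-Hochberg adjustment). How many reads stand behind such low values cannot be told from TPM.

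The lower members at an unadjusted p under 0.05 also held *CR30055*, *CR45233* and *CR44676*, singled out after their values were seen, with log2 fold changes of -0.74, -0.49 and -0.49. *CR30055*, on the opposite strand within the span of the corepressor gene *Sin3A*, had 9.87, 14.45 and 10.27 TPM in the libraries labelled CR40469-KO and 22.92, 13.40 and 24.40 TPM in those labelled control, so control replicate 2 overlaps the other group. *Sin3A* had 95.2 ± 38.6 TPM in the libraries labelled CR40469-KO and 63.6 ± 18.7 TPM in those labelled control (SD, n = 3 each).

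*SMRG* (X, 12680687 to 12682560) had 6.16, 4.69 and 5.41 TPM in the libraries labelled CR40469-KO and 11.11, 9.66 and 7.60 TPM in those labelled control. The log2 fold change was -0.70 (SE 0.17, Benjamini-Hochberg adjusted p = 0.350 by limma). *SMRG* shares exon sequence with *Tis11*, a zinc finger gene whose protein speeds the decay of AU-rich mRNAs, and whose level was 65.7 ± 14.6 TPM in the libraries labelled CR40469-KO and 47.4 ± 14.5 TPM in those labelled control (SD, n = 3 each; log2 fold change 0.48). A second member within *Tis11*, *CR33963*, had 7.18, 3.98 and 3.66 TPM in the libraries labelled CR40469-KO and 3.43, 5.73 and 2.67 TPM in those labelled control. The log2 fold changes at this locus were -0.70 for *SMRG*, 0.48 for *Tis11* and 0.26 for *CR33963*, and none of them was called. Since exons are shared, how reads were divided at this locus is not known, so whether the 3 transcripts moved together cannot be told. *CR33963* was singled out after its values were seen.

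The member with the largest positive log2 fold change, *CR43907* (2R, 11616195 to 11616694), lies 149 bp from *tou*, a chromatin gene. It had 6.25, 4.28 and 5.48 TPM in the libraries labelled CR40469-KO and 2.70, 1.27 and 0.74 TPM in those labelled control. The log2 fold change was 1.36 (SE 0.27, Benjamini-Hochberg adjusted p = 0.151 by limma). *tou* had 72.0 ± 32.8 TPM in the libraries labelled CR40469-KO and 49.6 ± 18.7 TPM in those labelled control (SD, n = 3 each), a log2 fold change of 0.50 (adjusted p = 0.818, limma). The other 3 members that were higher at an unadjusted p under 0.05, *CR45530*, *CR44498* and *CR32027*, had log2 fold changes of 0.82, 0.54 and 0.46 and adjusted p of 0.818 (limma). The groups did not overlap in *CR44498* and *CR32027*. *CR45530*, 32 bp from the polyubiquitin gene *Ubi-p5E*, had 8.64, 7.24 and 5.67 TPM in the libraries labelled CR40469-KO and 7.04, 2.46 and 2.44 TPM in those labelled control, where control replicate 1 overlaps the other group.

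Some of the members had been listed by the study as changed early in regeneration, in a comparison of damaged with undamaged discs on other samples. Of the 11 members on its list of early downregulated lncRNAs, 4 had an unadjusted p under 0.05, against 17.4% of all members and 4.82% of tested genes. All 4 were lower in the libraries labelled CR40469-KO, with groups that did not overlap. Every library labelled CR40469-KO was below every one labelled control in 15.2% of all members and 2.56% of tested genes. The 4 were *CR43496*, *CR45734*, *CR43144* and *CR45187*. *CR43144*, near the cullin gene *Cul2*, had 15.70, 18.96 and 24.51 TPM in the libraries labelled CR40469-KO and 36.49, 24.96 and 25.38 TPM in those labelled control, so that its groups only just missed each other. *CR45187* had 2.77, 2.10 and 1.99 TPM in the libraries labelled CR40469-KO and 2.86, 3.44 and 4.05 TPM in those labelled control. The 11 members had a median log2 fold change of -0.20 and ranged between -1.51 and 0.39, with *CR43264* the highest. *CR43995*, which had the second highest mean TPM of the 11, had 21.91, 33.97 and 25.50 TPM in the libraries labelled CR40469-KO and 33.15, 19.90 and 30.55 TPM in those labelled control, which do not differ beyond their spread.

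Of the 5 members on the list of early upregulated lncRNAs, only *CR45530* had an unadjusted p under 0.05, and no member had groups that did not overlap. *CR45176*, antisense to *Hpd*, which was listed at 0, had 14.93, 9.85 and 9.64 TPM in the libraries labelled CR40469-KO and 13.12, 10.92 and 10.61 TPM in those labelled control. *CR44918* had 10.59, 8.12 and 8.46 TPM in the libraries labelled CR40469-KO and 13.38, 9.15 and 11.52 TPM in those labelled control. *CR43900*, which shares exons with the calmodulin gene *Cam*, had 7.76 ± 1.90 TPM in the libraries labelled CR40469-KO and 6.91 ± 1.08 TPM in those labelled control, and *CR44294* had 4.73 ± 0.55 TPM against 6.79 ± 3.15 TPM (SD, n = 3 each). The 5 had a median log2 fold change of -0.03. On the study's list of genes changed in the mutant there were 4 members, *CR43496*, *CR44042*, *CR45181* and *CR43907*. The study chose that list on these samples, so that it is not independent evidence for their differences.

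By position, 28 members (30.4%) shared exon sequence with a PCG, 16 (17.4%) lay in an intron or elsewhere within the span of a PCG without touching its exons, and 48 (52.2%) were intergenic. The intergenic members lay at a median of 513.5 bp from the nearest PCG, and 33 of the 48 were within 1000 bp. In all, 34 members shared exon sequence with some other gene on either strand. It is not stated whether reads were assigned by strand, so the levels of these 34 cannot be told apart with certainty from those of the genes they overlap. The share of members with an unadjusted p under 0.05 was 2 of 28 for exonic members, 3 of 16 for those within a span and 11 of 48 for intergenic ones. It was 4.82% over all tested genes. The 58 of 92 members that share no exon had a median log2 fold change of -0.12 and included 9 of the 12 lower members at that p. Of these, *CR43496* and *CR30055* lie within the span of a PCG, and the part of read assignment in their values was not tested.

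Each lncRNA was set beside the PCG that it overlaps or lies nearest to. Of the 92 members, 77 had a neighbour that was tested, and 64 had a neighbour with a higher mean level than their own. Over the 77 pairs, the log2 fold changes of lncRNA and neighbour had a Pearson r of 0.18 and a Spearman rho of 0.24, given as a description over pairs that share the same libraries. Both lay on the same side of the all-gene median in 37 of the 77 pairs, made up of 5 of 24 exonic pairs (r -0.15), 11 of 15 pairs with the lncRNA within a span (r -0.0044) and 21 of 38 intergenic pairs (r 0.37). The only neighbour that was called was *CG3168*, which had 29.5 ± 7.2 TPM in the libraries labelled CR40469-KO and 9.64 ± 1.59 TPM in those labelled control (SD, n = 3 each; log2 fold change 1.5, Benjamini-Hochberg adjusted p = 0.0334 by limma). The lncRNA in its span on the opposite strand, *CR43461*, had 8.81, 17.13 and 17.18 TPM in the libraries labelled CR40469-KO and 14.08, 16.73 and 17.37 TPM in those labelled control, a log2 fold change of -0.20. *CR43461* was singled out for its neighbour after its values were seen.

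**Figure D5:**
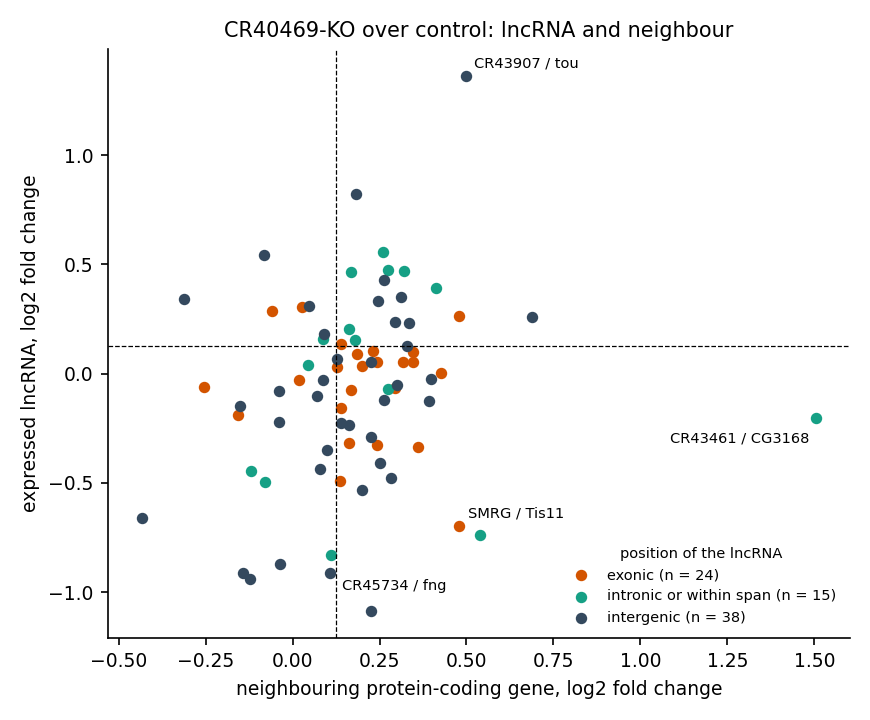
Log2 fold change (libraries labelled CR40469-KO over those labelled control) of each expressed lncRNA against that of its overlapping or nearest PCG, for the 77 pairs in which both were tested. Colours give the position of the lncRNA relative to PCGs, and dashed lines mark the median of all tested genes (0.125). The points show little common direction (Pearson r 0.18), and the called PCG *CG3168* stands alone at the right.

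Several members lie beside genes that pattern the disc or drive its growth. These were picked by the identity of the neighbour after the values had been seen. *CR44334* lies 2708 bp from *rn*, a zinc finger gene of the wing pouch, and had 61.65, 70.10 and 70.07 TPM in the libraries labelled CR40469-KO and 99.59, 69.56 and 70.41 TPM in those labelled control. Apart from control replicate 1, the 5 other libraries lay within 61.65 to 70.41 TPM. *CR32111* and *CR44552*, whose nearest PCGs are the Iroquois homeobox genes *caup* and *mirr*, had log2 fold changes of 0.13 and -0.12, while those of *caup* and *mirr* were 0.33 and 0.39. *CR44918* and *CR44917* lie 27934 and 18082 bp from *tsh*, a zinc finger gene of the proximal disc, with log2 fold changes of -0.29 and 0.05. *CR44932*, 124 bp from the Hox gene *Antp*, had 6.07, 7.67 and 7.73 TPM in the libraries labelled CR40469-KO and 9.29, 8.15 and 8.24 TPM in those labelled control, with groups that did not overlap and a log2 fold change of -0.23 (SE 0.15). *CR46056* and *CR46057* both lie in the span of the cell cycle gene *E2f1*, at means of 17.7 and 2.5 TPM and log2 fold changes of -0.07 and 0.47. Apart from *CR45734* beside *fng*, no member of this group had an unadjusted p under 0.05.

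The members nearest to *CR40469* on X were also looked up, after the values had been seen. *CR45473* lies 18015 bp away and shares exon sequence with *tyn* on the opposite strand. It had 16.31, 16.48 and 13.96 TPM in the libraries labelled CR40469-KO and 25.62, 14.88 and 19.80 TPM in those labelled control, which overlap (log2 fold change -0.32, SE 0.20, Benjamini-Hochberg adjusted p = 0.818 by limma). The next members along the chromosome, *enrr*, *CR45474* and *CR42491*, lie 390.4, 497.6 and 639.9 kb away and had log2 fold changes of -0.06, 0.29 and -0.03. X carries 19 of the 92 members (20.7%), 17.0% of the PCGs and 12.3% of the genes with a lncRNA symbol. The median log2 fold change of its members was -0.02. On 3L, which carries 26 members (28.3%), 19.6% of the PCGs and 22.9% of the genes with a lncRNA symbol, the median was -0.03. Of the 16 members with an unadjusted p under 0.05, 7 lie there. This is 7 of the 26 members of 3L, against 17.4% of all members and 4.82% of tested genes. The lncRNAs set aside by name, of which *CR40469* and *CR34335* lie on X, are not in these counts of members.

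The mean of 2 TPM divides members from other lncRNAs without a gap. The 3 members just above it were *CR46085*, *CR45181* and *CR44677*, with means of 2.14, 2.08 and 2.08 TPM. The 3 lncRNAs just below it were *CR44299*, *CR44933* and *CR45437*, with means of 1.96, 1.92 and 1.87 TPM. *CR46085* had log2 fold changes of 0.07 as deposited and -0.01 after scaling to the median ratio, and *CR44677*, near *CG9300*, had -0.05 as deposited. Of the lncRNAs below the mean, 92 were tested as well, and none of them was called. Their median log2 fold change was 0.03, and 12 of them had an unadjusted p under 0.05, of which 5 were higher and 7 lower in the libraries labelled CR40469-KO. This share of 13.0% compares with 17.4% of the members and 4.82% of tested genes.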

How the data were processed

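The deposited values are TPM per gene, which the authors made with STAR 2.4.0j (dm6) and RSEM 1.2.21 from poly-A selected RNA. TPM keep no depth, so no counting interval can be given. Strandedness of the counting is not given in the sources used here. Symbols and positions came from a Release 6 annotation, the assembly of dm6, in which 16402 identifiers had a symbol and 53 did not.

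A fit with limma 3.58.1 in R 4.3.3 (lmFit and eBayes on log2(TPM + 1), label as the only term) covered the 8051 genes that reached 1 TPM in any library, with Benjamini-Hochberg adjustment over all of them. It was also run on simulated data whose spread was set in advance and not taken from these libraries. That run does not show how many changes of the members the fit would find. Each lncRNA was paired with the PCG that it overlapped most or, failing that, lay nearest to.

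The members, lists and marker genes were chosen with earlier results of these data known. Members were named for a name of their own, for hosting small RNAs, for being among the 10 highest, the 8 lowest p, the 4 largest spreads or the study's lists, or for lying nearest to 2 TPM. Others were chosen after their values were seen. No sequences were used here. The alternatives were a pseudocount of 0.1, other filters, median-ratio scaling, a mean-variance trend, the replicate block, no fold threshold, other mean levels and each library left out. Figures were drawn with matplotlib 3.10.9.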

Additional observations from a re-analysis of the deposited data

How the results depend on the processing

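No tested member was called under the other pseudocount, filters, scaling or trend, without the fold change threshold, or at a mean of at least 1 or 5 TPM (135 and 53 lncRNAs). With 1 TPM required in every library, 90 of the 92 members were tested, without *CR43907* and *CR45181*. Leaving out members that share an exon, an alternative chosen after seeing the data, also gave none. At an unadjusted p under 0.05 there were 11 to 22 members over these fits and those with a library left out. With each library left out, 0 to 1 members were called, the 1 being *CR43496* without CR40469-KO replicate 1. The number of genes called was 2 without a filter on low values, 3 with 1 TPM required in every library, and 6 (without control replicate 1) to 35 (without CR40469-KO replicate 1) with each library left out, 11 without CR40469-KO replicate 3 and 9 without control replicate 3. In each of these fits fewer samples or another number of genes entered, and no other cause was tested.

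Over tested genes, the deviations of same-numbered libraries from their group means correlated at -0.0259, -0.353 and 0.159. Not every library correlated best with its own number. With 3 libraries in each group, these correlations cannot tell whether same-numbered libraries shared a batch, and single genes may follow the numbers. With the replicate block, 31 genes and 2 members were called, *CR43496* (adjusted p = 0.0133) and *CR43907* (adjusted p = 0.0322).

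Of the 33 lncRNAs named by rule, 19 kept their sign under every alternative that could be fitted. After scaling to the median ratio, *CR45184*, *CR42549* and *CR46085* had log2 fold changes of -0.0752, -0.0755 and -0.00823. With each library left out, the log2 fold changes of 14 uncalled members crossed 0. They lay between -0.0847 and 0.0505 for *CR42491*, -0.00687 and 0.472 for *CR42862*, -0.072 and 0.178 for *CR45184*, -0.25 and 0.11 for *CR43995*, -0.87 and 0.39 for *CR44268*, -0.0529 and 0.178 for *CR42549*, -0.219 and 0.0726 for *CR45176*, -0.0311 and 0.273 for *CR43900*, -0.69 and 0.35 for *CR44589*, -0.31 and 0.12 for *enrr*, -0.19 and 0.27 for *CR46085*, -0.72 and 0.41 for *CR44499*, -0.143 and 0.0278 for *CR44677*, and -0.18 and 0.11 for *CRG*. The signs printed for these members therefore rest on which libraries entered.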
